A study of Homo sapiens with 6 samples.

Results

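STEAP3 and 8 further genes of cellular iron handling (TFRC, FTH1, SLC40A1, SLC11A2, HMOX1, IREB2, ACO1 and NCOA4) were described in MDA-MB-231 cells with and without HMGA1 knock-down. STEAP3 was chosen by its measured difference between the 2 treatments, where it ranked 57 by p among 22011 transcripts, and it was also a gene of the network that the study built from these arrays. The others were added for their roles in iron uptake, storage, export and sensing. Of the 9 genes, 7 had a transcript annotated to them alone, among 14232 genes with such a transcript, and each of the 7 had a single one. FTH1 and IREB2 were not analysed here, because the annotation used here pairs no transcript with either alone.

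Most cells take up iron as ferric ions bound to transferrin, which is carried into endosomes by the transferrin receptor TFRC. In the acidic endosome the ferrireductase STEAP3 reduces the released ferric iron to ferrous iron, which SLC11A2 (DMT1) moves into the cytosol. Ferritin, built of FTH1 and FTL chains, stores the surplus, NCOA4 delivers ferritin to lysosomes for breakdown, HMOX1 frees iron from heme, and SLC40A1 (ferroportin) is the known iron exporter of mammalian cells. ACO1 (IRP1) and IREB2 (IRP2) bind iron responsive elements in mRNAs such as those of TFRC and ferritin and so tie their translation or stability to the iron supply.

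MDA-MB-231 is an established triple-negative human breast cancer line. HMGA1 encodes a chromatin protein that binds the minor groove of A/T-rich DNA. RNA was taken 48 hours after transfection with control siRNA (3 arrays) or HMGA1 siRNA (3 arrays) and hybridized to Affymetrix exon arrays, which read a transcript with probes along its exons, and the values are on the log2 scale after RMA. Both groups shared the cell line and the time and differed in the siRNA, and the labels of the samples use both shRNA and siRNA for the treatment, taken here as siRNA. The sample titles name the controls only as control treated cells, and the methods of the study describe their treatment as vector RNA. Control siRNA is the name used here for that group. The model is 1 cell line with a partial loss of HMGA1, and no group without any siRNA was analysed here. HMGA1 itself, on a transcript shared with its pseudogene HMGA1P8, was at 10.11, 10.25 and 10.35 with control siRNA and at 9.81, 9.65 and 9.76 with HMGA1 siRNA, a log2 difference of -0.50 (SE 0.10). Every HMGA1 siRNA array was below every control array.

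Median values of the arrays lay between 8.28 and 8.38, and pairs of arrays correlated between 0.982 and 0.995 over transcripts. Markers of the line were bright, with AXL at 13.14 to 13.22 and VIM at 12.80 to 13.05. The hormone receptor transcripts ESR1 and PGR were at 6.57 to 7.07 and 4.90 to 5.28. ERBB2 (HER2), listed with them as a gene low in this line, was not dim. It was at 10.14 to 10.27, in level group 5 of 5 counted from the dimmest. The replicate 3 arrays of both groups stood apart from the rest in 2 epithelial genes. Both were also listed as low in this line, but they lay in level group 3 of 5. Each was above the array medians on some arrays. CDH1 (E-cadherin) differed by -1.71 log2 units on them (9.40, 9.34 and 7.56 with control siRNA, 8.78, 9.01 and 7.28 with HMGA1 siRNA), and EPCAM was 1.08 higher (8.05 to 8.23 against 9.22 with control siRNA, and 7.74 to 8.12 on the other HMGA1 siRNA arrays). In limma with a term for the treatment these differences had adjusted p = 0.0087 and adjusted p = 0.0435. These values are a description, because earlier results of the same data had shown that these arrays differ. No label or method names a batch that would set these arrays apart, so STEAP3 and the members that were lower are given below with and without them. Some markers of other cells with a strong iron traffic were dim: the macrophage genes CD163 and MSR1 were at 5.45 to 5.92 and 4.46 to 4.59, and the hepatocyte gene ALB at 5.08 to 5.65. Others were brighter. The macrophage gene CD14 (8.08 to 8.70) and the erythroid gene KLF1 (8.20 to 8.70) lay around the array medians. MARCO was at 7.35 to 8.11 and the erythroid gene HBB at 6.59 to 7.28. Of the lists, 3 of 5 erythroid, 5 of 5 macrophage and 4 of 5 hepatocyte markers were measured. In the treatment comparison 0 passed the test, beside 0% of all transcripts, and in the replicate 3 comparison 0 passed, beside 0.468%. With HMGA1 siRNA 0 of the 3 erythroid, 0 of the 5 macrophage and 1 of the 4 hepatocyte markers were above 0, beside 46.1% of all transcripts. Their log2 differences lay between -0.32 (MARCO) and 0.036 (TTR). For ALB (-0.29) the groups did not overlap, as for 7.79% of all transcripts. The part of these markers in the iron genes' values was not tested.

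STEAP3 was lower with HMGA1 siRNA. Its promoter and that of SLC40A1, the other measured member below 0, are shown because HMGA1 binds A/T-rich DNA, with runs of 4 or more A or T in capitals. Each is the stretch of 250 bases before the transcription start in RefSeq (GRCh38.p14, 5′ to 3′ on the gene's strand), at chr2:119223584-119223833 (plus strand) for STEAP3 and chr2:189580787-189581036 (minus strand) for SLC40A1.
STEAP3: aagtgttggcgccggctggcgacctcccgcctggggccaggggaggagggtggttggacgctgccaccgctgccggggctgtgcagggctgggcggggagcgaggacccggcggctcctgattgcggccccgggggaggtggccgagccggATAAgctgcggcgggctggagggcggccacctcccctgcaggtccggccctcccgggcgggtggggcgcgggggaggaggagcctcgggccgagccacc
SLC40A1: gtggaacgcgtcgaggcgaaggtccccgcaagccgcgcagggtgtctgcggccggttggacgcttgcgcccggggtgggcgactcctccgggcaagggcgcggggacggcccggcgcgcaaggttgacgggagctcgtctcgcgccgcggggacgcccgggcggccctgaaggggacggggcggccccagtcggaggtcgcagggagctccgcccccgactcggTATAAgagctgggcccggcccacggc

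Both stretches are rich in G and C. A and T made up 21.6% of these bases for STEAP3 and 22.8% for SLC40A1, against a median of 42.0% over 35116 windows of the same length in the RefSeq table. The longest run of A and T was 4 bases for STEAP3 and 5 bases for SLC40A1. The median over all windows was 6 bases, and 26.2% of windows had no run longer than 4 and 41.3% none longer than 5. Windows of TFRC (25.6%) and ACO1 (23.2%) held similar shares of A and T. Those of the other members ran from 28.0% to 60.0% over 4 starts of SLC11A2 and were 48.0% and 54.8% at 2 starts of NCOA4, so 6 members matched the RefSeq table of promoters. The GC box GGGCGG, searched on both strands, was present 3 times each in the windows of STEAP3, SLC40A1 and TFRC and 6 times in that of ACO1, and 42.6% of all windows held it at least once. TATAAA and the hypoxia core ACGTG, also on both strands, were each found once in the TFRC window and in 0 windows of the other members, against 10.7% and 18.5% of all windows. The other form of the core, GCGTG, was found 3 times and once at 2 starts of SLC11A2 and once in the ACO1 window, against 32.2% of all windows. These matches describe letters, and binding of HMGA1 to them was not measured on these arrays.

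The STEAP3 transcript was at 9.79, 9.56 and 9.91 with control siRNA and at 9.11, 8.95 and 9.35 with HMGA1 siRNA. All 3 HMGA1 siRNA arrays lay below the lowest control array, and in each group the replicate 3 array was the highest and the replicate 2 array the lowest. The means were 9.75 ± 0.18 and 9.13 ± 0.20 (SD, n = 3), a log2 difference of -0.62 (SE 0.14, 95% interval -0.94 to -0.29) or 0.652 of the control level. Taken by replicate number the difference was -0.67, -0.61 and -0.56, and without the replicate 3 arrays it was -0.64. These values chose the gene and are given as a description. In bulk RNA, fewer cells that express a gene and less of its RNA per cell cannot be told apart.

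**Figure D1:**
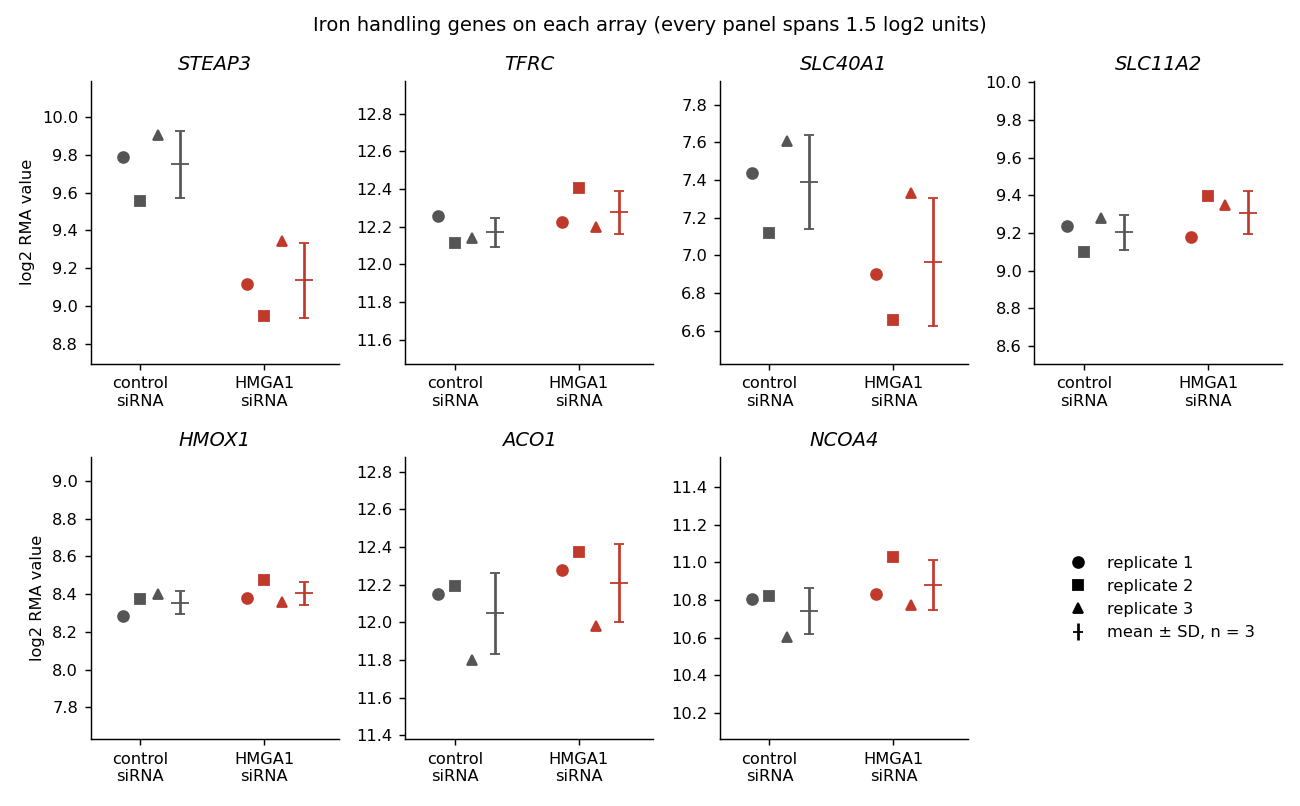
Log2 RMA values of the 7 measured iron handling genes on each array, with control siRNA in grey and HMGA1 siRNA in red, symbols for the replicate number, and bars for mean ± SD (n = 3). In the STEAP3 panel the HMGA1 siRNA arrays (8.95 to 9.35) lie below the control arrays (9.56 to 9.91), and in the other panels the groups overlap.

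The partners of STEAP3 in the endosome had differences above 0 with overlapping groups. TFRC, which brings transferrin into the cell, was at 12.26, 12.11 and 12.14 with control siRNA and at 12.22, 12.41 and 12.20 with HMGA1 siRNA. The groups overlapped, and the HMGA1 siRNA replicate 2 array was the brightest. The log2 difference was 0.11 (SE 0.099, 95% interval -0.13 to 0.34), and 0.13 without replicate 3. SLC11A2, the ferrous iron transporter of the endosome, was at 9.23, 9.10 and 9.28 and then at 9.18, 9.40 and 9.35, a log2 difference of 0.10 (SE 0.10, 95% interval -0.13 to 0.34). The groups overlapped here too, and the difference between these genes and STEAP3 was not tested.

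SLC40A1, the exporter, had the second lower value. It was at 7.44, 7.12 and 7.61 with control siRNA and at 6.90, 6.66 and 7.33 with HMGA1 siRNA. Each HMGA1 siRNA array was below the control array of its number, by 0.53, 0.46 and 0.28, but the groups overlapped, because HMGA1 siRNA replicate 3 was above control replicate 2. The means were 7.39 ± 0.25 and 6.96 ± 0.34 (SD, n = 3), a log2 difference of -0.42 (SE 0.20, 95% interval -0.88 to 0.032), or 0.745 of the control level. Without the replicate 3 arrays the difference was -0.50, when 1 array was left out it ran from -0.61 (without HMGA1 siRNA replicate 3) to -0.27 (without HMGA1 siRNA replicate 2), and with arrays weighted by their precision it was 0.0019. As for STEAP3, the replicate 3 array was the highest of each group and the replicate 2 array the lowest. The transcript was dim, in level group 2 of 5 counted from the dimmest, where background signal makes differences on this scale smaller.

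The genes that release or sense iron had values slightly above 0 with HMGA1 siRNA, within the spread of the arrays. ACO1, an aconitase that becomes the mRNA-binding protein IRP1 when it lacks its iron-sulfur cluster, was at 12.15, 12.19 and 11.80 with control siRNA and at 12.28, 12.37 and 11.98 with HMGA1 siRNA. Each HMGA1 siRNA array was above the control array of its number, by 0.13, 0.18 and 0.18, yet the replicate 3 array was far below the others in each group and the groups overlapped. The log2 difference was 0.16 (SE 0.15, 95% interval -0.19 to 0.51). It ran from 0.039 to 0.28 when 1 array was left out and turned to -0.12 with array weights. NCOA4, the receptor that takes ferritin to lysosomes, was at 10.80, 10.82 and 10.60 and then at 10.83, 11.03 and 10.77. It showed the same order as ACO1, with replicate 3 the lowest in each group, and a log2 difference of 0.14 (SE 0.11, 95% interval -0.12 to 0.40), which ran from 0.061 to 0.19 when 1 array was left out and was -0.00073 with array weights. HMOX1, the inducible heme oxygenase, was at 8.28, 8.38 and 8.40 and then at 8.38, 8.47 and 8.36. Its arrays lay within 0.2 log2 units of each other, with a difference of 0.050 (SE 0.089, 95% interval -0.16 to 0.26).

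Of the 7 measured genes, 5 were above 0 and 2 below. Their median log2 difference was 0.10, against a median of -0.012 over all transcripts, of which 46.1% were above 0. With limma 0 of the 7 passed an adjusted p of 0.05, as did 0 of the 22011 transcripts (0%, smallest adjusted p = 0.262), while 728 transcripts had an unadjusted p under 0.05, of which 384 were higher and 344 lower. An unmoderated test called 0 transcripts and array weights 198, with STEAP3 at -0.36 (adjusted p = 0.0858) under those weights. The groups did not overlap for 1 of the 7, STEAP3, and for 7.79% of all transcripts. Without the replicate 3 arrays the 5 differences above 0 ran from 0.097 (HMOX1) to 0.16 (ACO1). Since STEAP3 was chosen from this contrast, nothing is read from these counts.

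**Figure D2:**
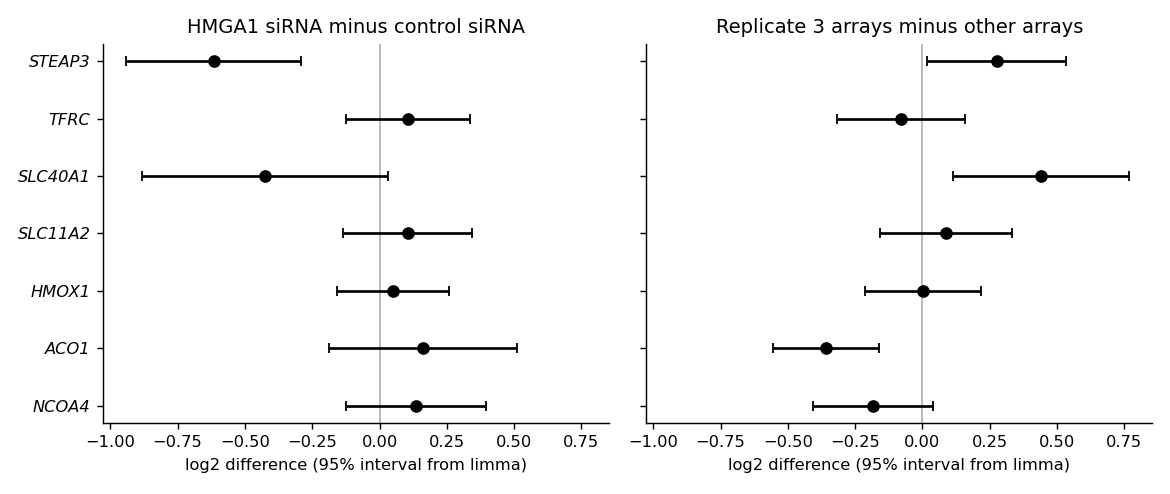
Log2 differences of the 7 measured genes with 95% intervals from limma, on the left for HMGA1 siRNA minus control siRNA and on the right for the replicate 3 arrays minus the other arrays. On the left only the interval of STEAP3 (-0.94 to -0.29) lies off 0, and on the right those of STEAP3, SLC40A1 and ACO1 do.

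The difference of the replicate 3 arrays was not used to choose the genes. Earlier results of these data had shown that these arrays differ, so the adjusted p-values for them are a description. STEAP3 was higher on them by 0.28 (SE 0.11, 95% interval 0.017 to 0.53, adjusted p = 0.328 from limma over all transcripts), which did not pass. SLC40A1 was higher by 0.44 (SE 0.13, 95% interval 0.11 to 0.77, adjusted p = 0.237) and ACO1 lower by a log2 difference of -0.36 (SE 0.080, 95% interval -0.56 to -0.16, adjusted p = 0.152). NCOA4 (-0.18), TFRC (-0.081), SLC11A2 (0.087) and HMOX1 (0.0028) had adjusted p of 0.458, 0.794, 0.786 and 0.993. Thus 0 of the 7 genes passed, where 103 transcripts (0.468%) did, 44 higher and 59 lower on the replicate 3 arrays. That count rests on single arrays: it was 0 without any 1 of the control arrays or without HMGA1 siRNA replicate 3, 66 without HMGA1 siRNA replicate 2 and 1046 without HMGA1 siRNA replicate 1, and an unmoderated test called 5. ACO1 passed under other settings, with an adjusted p = 0.0371 under a trended and robust prior and 0.0473 without HMGA1 siRNA replicate 1. The replicate 3 array lay outside both other arrays on the same side in each group for 4 of the 7 genes (above for STEAP3 and SLC40A1, below for ACO1 and NCOA4), and for 34.4% of all transcripts. The difference of SLC40A1 between replicate 3 and the other arrays, 0.44, was thus about as large as its difference of -0.42 between treatments, while that of STEAP3 was smaller (0.28 against -0.62).

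The wider pathway was followed in 8 lists of 124 further iron genes, of which 92 were measured. Of these, 49 (53.3%) were above 0 with HMGA1 siRNA and 43 below, beside 46.1% above 0 over all transcripts. Their median log2 difference was 0.0078 (-0.0040 with quantile normalization) beside -0.012 over all transcripts. Of the 92 genes 0 passed the test, as did 0% of all transcripts. The groups did not overlap for 9 of the 92 (9.78%, beside 7.79% of all transcripts), 8 higher and 1 lower with HMGA1 siRNA. Over all transcripts 942 were higher and 773 lower without overlap. With so few genes nothing is read from this split.

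Among the 17 measured genes of transferrin and STEAP uptake, 8 had a positive and 9 a negative log2 difference (median -0.0099). The other measured ferrireductases of the list had values above 0. CYBRD1, a ferric reductase of the plasma membrane best known from the duodenum, was at 11.85, 11.77 and 12.10 with control siRNA and at 12.15, 12.22 and 12.38 with HMGA1 siRNA. Every HMGA1 siRNA array was above every control array, with a log2 difference of 0.35 (SE 0.12). STEAP2 had a difference of 0.20 (SE 0.13) and STEAP4, in the dimmest level group, one of 0.050 (SE 0.099), both with overlapping groups. STEAP1 was not analysed here, since its transcripts also list STEAP1B. TFR2, the second transferrin receptor, was at -0.12, its partner in iron sensing HFE at 0.13, the secreted iron binder LTF at -0.22, and the metal importers SLC39A14 and SLC39A8 at 0.11 and 0.069.

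For storage, 5 of 8 genes had a positive difference (median 0.046). FTL, the ferritin light chain, is a classic mRNA under IRP control, and the iron responsive element near its 5′ end carries the loop motif CAGTGN. Within the first 50 transcribed bases of RefSeq the motif was found once, from base 39 on, and bases 31 to 50 are shown with the motif in capitals (GRCh38.p14, chr19:48965339-48965358, plus strand).
FTL: tgcttcaaCAGTGTttggac

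On the sense strand 6.36% of all windows held that motif within the first 50 transcribed bases, and of the members' windows 1 of NCOA4 did. The search covered only these bases, so it cannot show whether an mRNA carries an iron responsive element elsewhere. A match of these letters alone is not such an element. The FTL transcript was at 10.01, 9.33 and 10.25 with control siRNA and at 9.90, 9.27 and 9.97 with HMGA1 siRNA. Here too the replicate 3 array was the highest and the replicate 2 array the lowest in each group, the groups overlapped, and the log2 difference of -0.15 (SE 0.27) was smaller than its error. The iron chaperones PCBP1 and PCBP2, which hand iron to ferritin, were at 0.12 and -0.011, and mitochondrial ferritin FTMT at -0.083. Export and its hormonal control by hepcidin gave 2 of 8 above 0 and 6 below (median -0.043). The ferroxidases HEPH and CP, which act beside SLC40A1, were at -0.041 and -0.075 in the dimmest level group, BMP6, a ligand that induces hepcidin in liver, at -0.095, and its receptor ACVR1 at 0.14.

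In iron sensing 5 of 7 genes were above 0 and 2 below (median 0.033), beside 46.1% above 0 over all transcripts. The groups did not overlap for 2 of the 7, beside 7.79% of all transcripts, and with so few genes nothing is read from these counts. EPAS1 (HIF-2α), whose mRNA carries an iron responsive element, was at 10.12, 10.02 and 10.03 with control siRNA and at 10.56, 10.47 and 10.25 with HMGA1 siRNA, a log2 difference of 0.37 (SE 0.11). FBXL5, the iron-binding ligase subunit that marks IRP2 for degradation, was at 11.11, 11.03 and 11.09 and then at 11.13, 11.23 and 11.27, a difference of 0.13 (SE 0.088). Both were higher on every HMGA1 siRNA array, by a small margin for FBXL5. HIF1A was at -0.054.

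Mitochondrial iron and iron-sulfur cluster genes were spread on both sides, 11 above 0 and 9 below of 20 (median 0.0088). SFXN1, a mitochondrial serine transporter, had the highest value of all 92 iron genes. It was at 10.44, 10.37 and 10.33 with control siRNA and at 10.84, 10.997 and 10.69 with HMGA1 siRNA, a log2 difference of 0.46 (SE 0.11) with no overlap. The study also placed SFXN1 in the network it drew from these arrays, so its value is no independent evidence. ISCU, the scaffold of cluster assembly, was at 9.78, 9.69 and 9.31 and then at 10.02, 10.11 and 9.77. Its difference of 0.37 (SE 0.15) came with overlapping groups, because replicate 3 was the lowest of each. NFS1, the cysteine desulfurase that supplies the sulfur, was at -0.23 (SE 0.11), the mitoferrins SLC25A37 and SLC25A28 at 0.061 and -0.046, and MMS19, of the cytosolic assembly machinery, at 0.033 (SE 0.081), its groups parted by less than 0.01 log2 units.

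**Figure D3:**
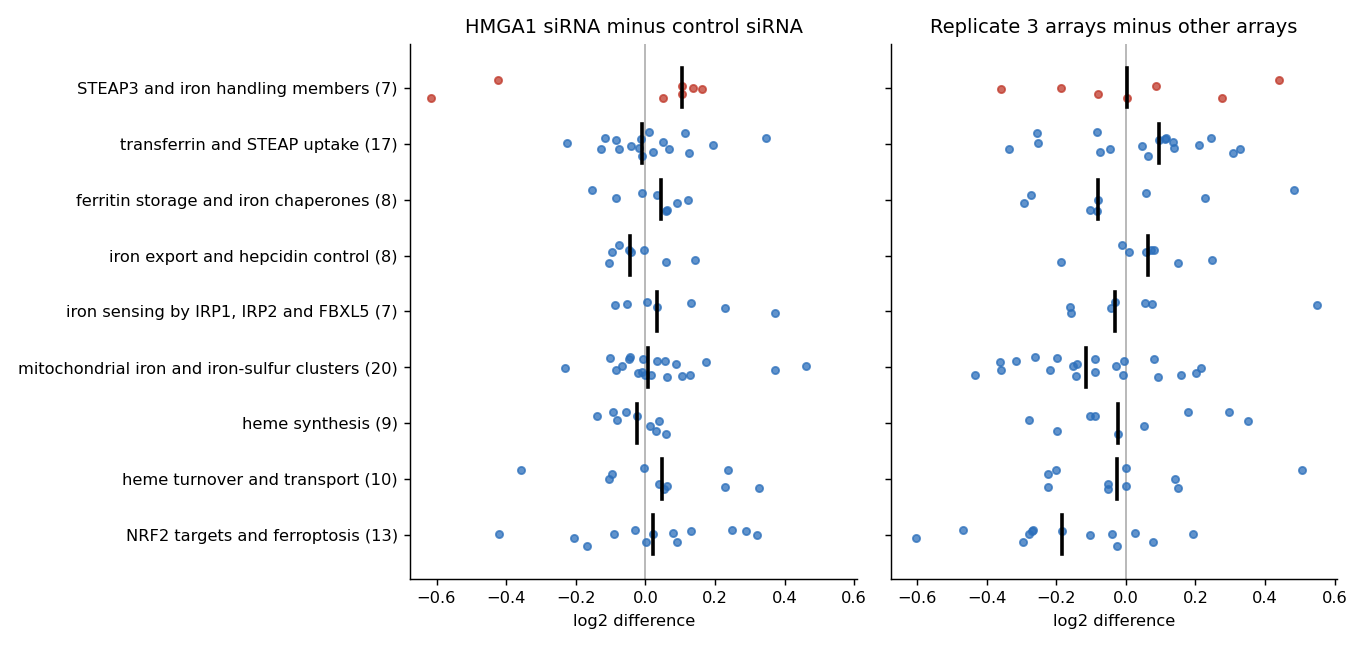
Log2 differences of the measured genes of each list (points, number measured in brackets) and their median (bar), on the left for HMGA1 siRNA minus control siRNA and on the right for the replicate 3 arrays minus the other arrays. On the left the medians of the 8 further lists lie between -0.043 and 0.047, and STEAP3 at -0.62 is the lowest point, while on the right the NRF2 and ferroptosis list has the lowest median (-0.18).

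Heme synthesis gave 4 of 9 above 0 (median -0.024), with ALAS1, the first enzyme of the pathway, at 0.031, FECH, the last, at -0.024, TMEM14C at 0.059 and PPOX at -0.14. Heme turnover and transport gave 6 of 10 above 0 (median 0.047). FLVCR1 and FLVCR2, membrane transporters named for a feline leukemia virus receptor, were the 2 genes of the 10 without overlap, beside 7.79% of all transcripts. FLVCR2 was at 8.82, 8.49 and 8.91 with control siRNA and at 9.16, 8.94 and 9.09 with HMGA1 siRNA, a log2 difference of 0.33 (SE 0.13), and FLVCR1 had a difference of 0.24 (SE 0.14), its groups parted by less than 0.01 log2 units. HMOX2 and BLVRB, which degrade heme and biliverdin, were at 0.053 and 0.063, and the efflux pump ABCG2 at -0.36 (SE 0.21) with overlapping groups.

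Targets of NRF2, the factor that switches on HMOX1 and other protective genes, and genes of ferroptosis, a form of cell death driven by iron and lipid peroxides, gave 8 of 13 above 0 and 5 below (median 0.022). LPCAT3, which puts polyunsaturated fatty acids into phospholipids, was the 1 iron list gene that was lower without overlap. It was at 12.00, 11.96 and 12.16 with control siRNA and at 11.43, 11.67 and 11.76 with HMGA1 siRNA, a log2 difference of -0.42 (SE 0.12). ME1, which makes NADPH, was at 9.01, 8.81 and 8.81 and then at 9.11, 9.36 and 9.13, a difference of 0.32 (SE 0.11) with no overlap. The glutathione peroxidase GPX4 was at 0.13, the repressor BACH1 at -0.096, and the glutathione genes GCLM and SLC7A11 at 0.25 (SE 0.21) and -0.21 (SE 0.23), all with overlapping groups. NFE2L2 and NQO1 were not analysed here.

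On the replicate 3 arrays 39 of the 92 iron genes were above 0 and 53 below (median -0.031). Over all transcripts 12588 were above 0 and 9423 below (median 0.028). Of the 92 genes 0 passed, beside 0.468% of all transcripts. The replicate 3 array lay outside both other arrays on the same side in each group for 51 of the 92 (55.4%), 20 above and 31 below. Over all transcripts this held for 34.4%, 16.4% above and 18.0% below. In the NRF2 and ferroptosis list 10 of 13 genes were below 0 there, with a median of -0.18. HMOX1, an NRF2 target kept with the members and not in this list, was at 0.0028. SLC7A11, the cystine importer, was at 11.06, 11.21 and 10.63 with control siRNA and at 10.95, 11.04 and 10.30 with HMGA1 siRNA. The replicate 3 array was the lowest in each group, with a difference of -0.60 (SE 0.095, adjusted p = 0.0864 from limma). GCLM had a difference of -0.47 (SE 0.14, adjusted p = 0.233). Of the mitochondrial and iron-sulfur list 15 of 20 were below 0 (median -0.12), and ISCU was at -0.36 (SE 0.087, adjusted p = 0.175). FTL was higher by 0.48 (SE 0.25, adjusted p = 0.474) and EGLN3, a prolyl hydroxylase of the hypoxia response, by 0.55 (SE 0.081, adjusted p = 0.0749), a gene named after its value was seen.

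The genes whose values followed STEAP3 most closely were found by Pearson correlation over the 6 arrays among 14231 other genes. They were CEP250, a centrosome protein (r = 0.993), NT5DC3 (0.992), the RNA-binding protein RBM47 (0.992), the kinase VRK3 (0.990) and SLC38A12 (0.988), and 32 genes had r over 0.95. Their own log2 differences were smaller than that of STEAP3, from -0.15 for RBM47 to -0.080 for NT5DC3, so the likeness is one of pattern over the arrays. These points share the treatment and the replicate 3 difference, and with 6 arrays such values are a description.

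STEAP3 lies on chromosome 2, and its protein-coding neighbours, 3 on one side and 4 on the other as RefSeq orders them, were looked up after the values were seen. Of these 7, 6 were measured, and the groups overlapped for all 6. Overlap is the usual case, since the groups did not overlap for 7.79% of all transcripts. MARCO, a scavenger receptor of macrophages, was at -0.32 (SE 0.16), C1QL2 at -0.17 (SE 0.10), SCTR, the secretin receptor, at -0.15 (SE 0.12), EN1 at -0.12 (SE 0.15) and TMEM37 at -0.023 (SE 0.24). DBI, the nearest measured gene on the side away from C1QL2, was at 0.067 (SE 0.11, 95% interval -0.20 to 0.33). Differences between STEAP3 and its neighbours were not tested.

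**Figure D4:**
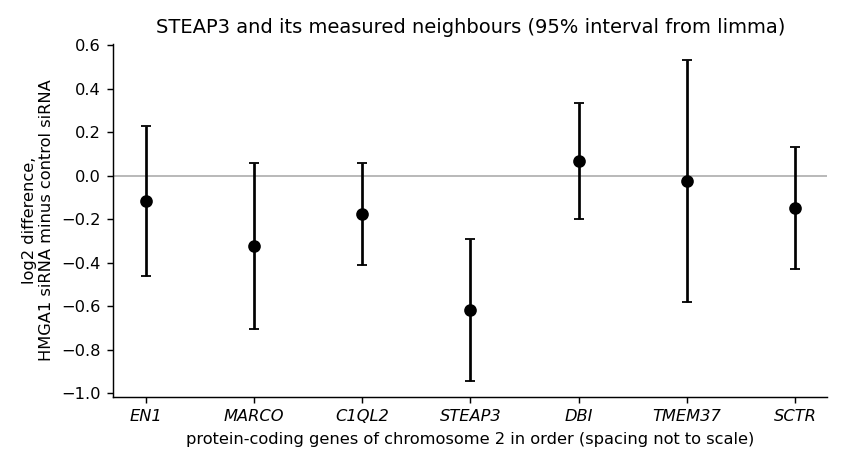
Log2 differences between HMGA1 siRNA and control siRNA for STEAP3 and the 6 measured neighbours in their order on chromosome 2 (spacing not to scale), with 95% intervals from limma. Only the interval of STEAP3 (-0.94 to -0.29) lies off 0.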

How the data were processed

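The samples were 6 RNAs of MDA-MB-231 cells, 3 after control siRNA and 3 after HMGA1 siRNA, each on an Affymetrix Human Exon 1.0 ST array. The authors deposited 1 table of log2 values made with RMA in the oligo package, and the submitters' processing notes also name limma and the build hg18. Versions are not given in the sources used here. RMA compresses the differences of dim transcripts. No coordinates of the arrays' build are given.

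All 22011 transcripts were fitted with the lmFit and eBayes functions of limma 3.58.1, run under R 4.3.3. Tests were two-sided, with Benjamini-Hochberg adjustment over the whole table and a threshold of 0.05. The treatment contrast had no covariate, and the replicate 3 contrast (2 arrays against 4) kept the treatment as a term. Of the 14432 transcripts with 1 gene symbol in the platform annotation, 14404 matched a RefSeq gene, and a gene with several transcripts was given by the one of highest mean. Sequences are those of RefSeq (GRCh38.p14). Figures were drawn with matplotlib 3.10.9, and the steps were tested on simulated data with known changes.

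The members, the lists and the replicate 3 contrast were chosen with earlier results of these data known. Genes were named by role, as the gene of smallest p on each side of 0 in each list, and as the 5 most like STEAP3. Of 30 genes named by role, 26 were measured. MMS19, EGLN3 and the chromosomal neighbours fall outside this rule and were named after their values were seen. The replicate numbers were not used to pair the samples in the main fit. Same-numbered arrays deviated together with correlations of -0.20, 0.26 and 0.53, which cannot show whether the samples were paired by design. Differences by replicate number are given as a description.

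The results were recomputed with array weights, an unmoderated test, a robust prior with a trend, the replicate number as a block, the mean over a gene's transcripts, median centring or quantile normalization, without the 40% dimmest transcripts, and without each array. A term for replicate number 3 and leaving out both of its arrays were added after the data were seen. With 3 arrays per group the number of arrays sets the precision. The p-values set each difference against the spread between these arrays, which eBayes moderates over all transcripts except in the unmoderated test.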

Additional observations from a re-analysis of the deposited data

How the results depend on the processing

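The log2 difference of STEAP3 stayed below 0 under all 15 alternatives, from -0.72 to -0.36, and from -0.72 to -0.52 when 1 array was left out. Its sign could not change when arrays were left out or weighted, because every HMGA1 siRNA array was below every control array. Settings that alter only the test, such as the robust prior, left the value at -0.62 by construction. STEAP3 was also chosen by this difference, so the shared sign is no added evidence. The value of -0.36 came with array weights (adjusted p = 0.0858), which gave HMGA1 siRNA replicate 3 a weight of 6.80 and the other arrays 0.275 to 2.21. With array weights 198 transcripts were called between treatments, against 0 under every other alternative with a count. No count was made for the mean over a gene's transcripts. With array weights SLC40A1, ACO1 and NCOA4 were at 0.0019, -0.12 and -0.00073. TFRC, SLC11A2 and HMOX1 stayed above 0 throughout. The median of the 92 further iron genes moved to 0.032 without the dimmest 40% of transcripts, a setting that left out SLC40A1, and turned to -0.0040 with quantile normalization. The fit with the replicate block called 0 transcripts and gave STEAP3 -0.62 (adjusted p = 0.674), and it changed no call. The count for the replicate 3 contrast, 103, was 407 without the dimmest 40% of transcripts, 371 with a trended and robust prior and 5 unmoderated. It ran from 0 (without control siRNA replicate 1, 2 or 3, or without HMGA1 siRNA replicate 3) to 1046 (without HMGA1 siRNA replicate 1) when 1 array was left out. Array weights could not be fitted for that contrast. The causes of these changes were not tested.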
